A study of Homo sapiens with 8 samples.

Results

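The genes MDM2, GADD45A, BBC3, BAX, FAS, TP53I3, SESN1, BTG2, PPM1D and TP53INP1 are 10 targets of the transcription factor p53, and their chromatin was described here from ATAC-seq peak lists of U2OS cells, a human osteosarcoma line that retains wild-type p53. ATAC-seq uses the transposase Tn5, which cuts and tags DNA where chromatin is open. The members were all accessible regions that overlapped these genes, with 10 kb added on each side of the gene as annotated by GENCODE on the human genome build hg38. Of 1435500 distinct intervals in 8 lists, 416 met this rule. Intervals of different lists that shared at least 1 bp were joined into sites, which gave 115 sites at the 10 loci out of 548046 in the genome.

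The study set wild-type (WT) cells beside ASH1L-/- cells, a line grown from isolated colonies after CRISPR/Cas9 had disrupted ASH1L, which encodes a histone methyltransferase. Cells of each genotype were either left unchallenged or given 20 J per square metre of UV-C and collected 3 h later. Each of the 4 groups held 2 libraries, which the labels call biological replicates without saying how they were separated. DNase treatment, which digests DNA of dead or damaged cells, was common to all groups.

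p53 is stabilised when DNA is damaged and binds a response element made of adjoining half-sites in promoters or introns of its targets. The products of these targets halt the cell cycle, start apoptosis, or switch p53 off again. Accessibility at such an element or promoter is a property of the chromatin and is measured separately from binding of p53 and from transcription, neither of which was measured here.

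Each list gave a fold enrichment per region, which is the pileup of reads at the summit over a local background of the same library. Lists were not normalised to each other, so a region was described by the percentile of its fold enrichment among all regions of its list, where 100 is the strongest region of the library. The lists held between 158198 and 220783 regions. Regions with a q-value below 0.05 made up 77.4% to 80.1% of the unchallenged and 85.7% to 94.2% of the irradiated lists. Median region width was 242 to 291 bp without and 356 to 444 bp with UV. Both were highest in replicate 2 of the irradiated WT cells. A percentile depends on the other regions of its list, and the part of this in the UV differences was not tested. Relative depth, the mean pileup over the genome recovered from the lists, lay between 1.39 and 2.81 in 7 libraries and was 5.87 in replicate 1 of the unchallenged ASH1L-/- cells. Promoter regions of the targeted gene ASH1L were present in all 8 lists with percentiles between 81.1 and 97.6. An open promoter does not check the genotype. Of 5 mesenchymal marker genes, RUNX2, COL1A1 and SPARC had a promoter region in 8 lists, COL1A2 in 7 and TWIST1 in 2. Among markers of other cell types, PTPRC and ALB had one in 1 list and the epithelial genes EPCAM and CDH1 in 8, so that an open promoter did not mark the cell type. The EPCAM promoter fell by 7.31 ± 1.702 percentile points after UV (SE, adjusted p = 0.0442, limma), and its part in the results below was not tested.

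Sequences that resemble the p53 response element lay under accessible sites of 9 of the 10 genes, and for 8 of them under a site found in all 8 lists. TP53I3 had them only under a site of 4 lists, 14614 and 14654 bp from its nearest start site. The share of other genes with such a sequence was not counted. An element was taken as 2 adjoining p53 half-sites of 10 bases with no spacer, at most 3 mismatches to the consensus of both together, and the core C and G of each half-site intact. This motif reads the same on both strands. The loci held 43 such elements, of which 13 lay under a site, and 9 of these under a site found in all 8 lists. The 10 that follow are these 9 and the element of a GADD45A site found only after UV. Each is given 5′ to 3′ from hg38 on the strand of its gene, which is the reverse strand for BBC3 and SESN1 and the forward strand for the others, with the element in capitals and 5 flanking bases on each side.

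GADD45A, intron, chr1:67686775-67686794: gtacaGAACATGTCTAAGCATGCTGgggac
GADD45A, upstream, found only after UV, chr1:67684384-67684403: gaaggATCCTTGTTTGGGCAAGGCTctttg
MDM2, intron, chr12:68808923-68808942: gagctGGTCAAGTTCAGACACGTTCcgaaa
BTG2, intron, chr1:203306683-203306702: ccagaGGCCCTGCCTGGACATGCCAgtccc
FAS, exon and UTR, chr10:88991309-88991328: ctcctGGACAAGCCCTGACAAGCCAagcca
BAX, upstream, chr19:48954455-48954474: gttagAGACAAGCCTGGGCGTGGGCtatat
BAX, exon, chr19:48955213-48955232: cccccGGGCAGGCCCGGGCTTGTCGcccgc
BBC3, intron, chr19:47231320-47231339: cgcgcCTGCAAGTCCTGACTTGTCCgcggc
PPM1D, upstream, chr17:60599720-60599739: gtgcaGCACTTGTTCCGGCCAGCTCacaat
SESN1, intron, chr6:109009018-109009037: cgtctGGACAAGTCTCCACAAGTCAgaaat

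The GADD45A intronic element had 1 mismatch to the consensus, those of MDM2 and FAS and the exonic one of BAX had 2, and the other 6 had 3. The elements of GADD45A, MDM2 and BTG2 were close to the strongest point of their sites. They lay 72 bp (GADD45A intron), 31 bp (GADD45A upstream), 86 bp (MDM2) and 92 bp (BTG2) from the site's summit, and a region summit lay within 100 bp of the intronic ones in all 8 lists. The FAS element was 632 bp from the summit of its site, and that of SESN1 728 bp. Within a window of 300 bp centred on the summit, 5 of 115 sites at these loci held an element (4.35%), against 1.84% of all sites. Among the sites found in all 8 lists it was 3 of 23 (13.04%), against 1.60%. A match of letters does not show that p53 is bound.

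Sites were spread unevenly over the loci. PPM1D, which encodes a phosphatase that dampens p53 signalling, had 44 of the 115 sites, or 5.11 per 10 kb, which put it at percentile 97.6 of 19970 protein-coding genes (median 2.53 per 10 kb). FAS, a death receptor, had 18 sites, BAX 11, BBC3 10, GADD45A 7, TP53I3 and BTG2 6 each, TP53INP1 5, and MDM2 and SESN1 4 each. SESN1, a stress-induced regulator of growth signalling with a span of 130.5 kb including the flanks, was at percentile 4.24 with 0.306 sites per 10 kb. Of the 44 PPM1D sites 28 were found in a single list.

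**Figure D1:**
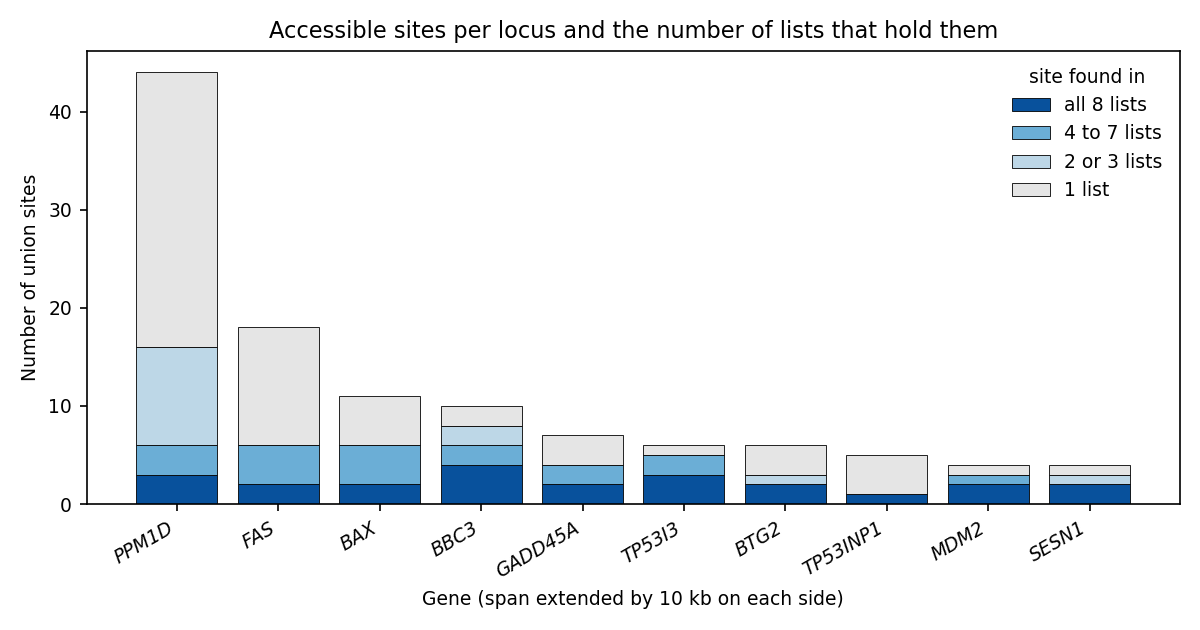
The bars give the number of sites (vertical axis) at each gene extended by 10 kb (horizontal axis), with the shading showing in how many of the 8 lists a site was found. The PPM1D bar reaches 44 sites, 28 of them from 1 list, and each gene has between 1 and 4 sites found in all 8 lists.

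By place, 24 sites were promoter sites of the 10 genes, with their summit at most 1 kb from any start site (TSS) that GENCODE annotates for the gene. The others were 42 sites in introns, 5 in exons, 20 in the upstream and 20 in the downstream flank, and 4 at promoters of neighbouring genes. All 8 lists held 23 of the sites (20% of them, against 11.01% of all sites in the genome), and 13 of these were promoter sites. A single list held 60 of the sites (52.2% against 60.5%). These had a median percentile of 22.8, with a range from 0.793 to 67.7. The number of regions at the 10 loci was 55 and 49 in unchallenged WT, 49 and 55 in irradiated WT libraries, 58 and 52 in unchallenged ASH1L-/-, and 47 and 53 in irradiated ASH1L-/- libraries. The mean was 53.5 ± 3.87 without and 51 ± 3.65 with UV (SD, n = 4 each), a difference smaller than either spread. With only regions of q below 0.05 it was 5 more regions with UV, and at a q of 0.01 or below 8.5 more.

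The promoter of each gene was open in every library. Ordered by mean percentile of the strongest promoter site over the 8 libraries, TP53I3 was highest at 96.5 ± 2.63 (SD, n = 8). It was followed by FAS (92.6 ± 2.90), SESN1 (91.5 ± 4.77), PPM1D (86.1 ± 6.87), MDM2 (85.8 ± 3.13), BTG2 (84.4 ± 6.43), BAX (82.7 ± 6.05), GADD45A (79.1 ± 16.4), BBC3 (77.4 ± 6.204) and TP53INP1 (59.7 ± 14.6). TP53I3 and FAS, and BBC3 and TP53INP1, were farther apart than the SD of either neighbour, and the other neighbours in this order were not. The wide spread of GADD45A follows the UV treatment, as described next.

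**Figure D2:**
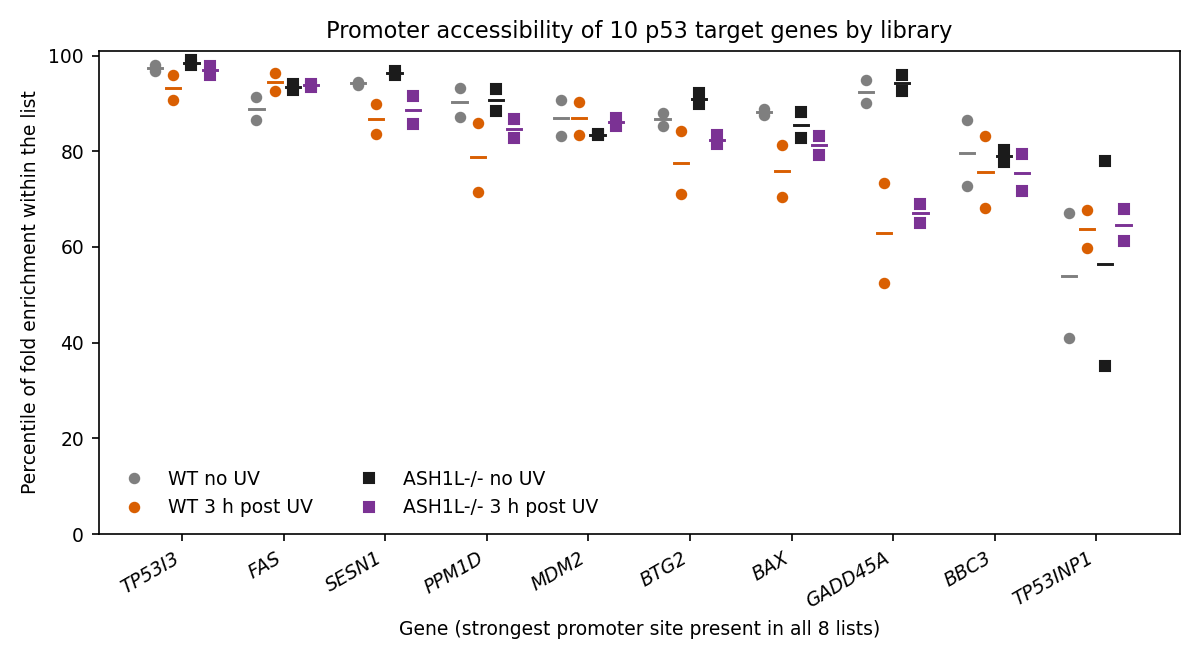
Percentile of fold enrichment within each list (vertical axis, 100 is the strongest region) for the strongest promoter site of each gene (horizontal axis). Points are the 2 libraries of each group, circles WT and squares ASH1L-/-, and lines are group means. At GADD45A the 4 unchallenged libraries lie between 90.1 and 95.8 and the 4 UV libraries between 52.4 and 73.3.

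The GADD45A promoter was the one site of the 23 that passed the UV test, and it fell. GADD45A is a stress sensor that acts in growth arrest and DNA repair. Its promoter site (chr1:67684764-67685457, summit 15 bp before the TSS) had percentiles of 90.1 and 94.8 in unchallenged WT and 73.3 and 52.4 in irradiated WT libraries. In ASH1L-/- cells they were 95.8 and 92.7 without and 69.0 and 65.1 with UV. All 4 irradiated libraries were thus below all 4 unchallenged ones, in both genotypes. The UV difference, taken as the mean of both genotypes, was -28.4 ± 5.30 percentile points (SE, adjusted p = 0.0284, limma across 60323 sites). It was -29.6 ± 7.497 in WT (adjusted p = 0.125) and -27.2 ± 7.497 in ASH1L-/- cells (adjusted p = 0.202), and the difference between these was -2.35 ± 10.6. Since cells were measured in bulk, a lower value in all cells and a closed promoter in some of them cannot be told apart.

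The fold enrichment itself was also lower at the GADD45A promoter. It was 8.92 and 13.4 in unchallenged WT, 6.23 and 5.37 in irradiated WT libraries, 10.0 and 10.7 in unchallenged ASH1L-/-, and 6.06 and 4.73 in irradiated ASH1L-/- libraries. The mean went from 10.8 ± 1.903 to 5.598 ± 0.689 (SD, n = 4 each), which is 0.520 times the unchallenged level. The libraries did not overlap in fold enrichment in this direction at 1.03% of the sites tested. Over all sites tested, the median fold enrichment of a library was instead higher with UV, 8.86 ± 1.48 against 6.56 ± 0.997. Of 14101 promoter sites in the genome, 125 (0.886%) had a UV difference in percentile as low as that of GADD45A. The call was lost without some single libraries. The adjusted p was 0.113 without replicate 1 and 0.0894 without replicate 2 of the irradiated ASH1L-/- cells, and no site of the genome passed without either. It was 0.0663 without replicate 2 of the unchallenged ASH1L-/- cells and 0.0527 without replicate 2 of the unchallenged WT cells, and the difference stayed between -33.6 and -23.2.

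A further GADD45A site appeared upstream of this promoter after UV. The site chr1:67684121-67684569, with its summit 838 bp before the TSS, was absent from all 4 unchallenged lists. Its percentiles after UV were 31.4 and 17.4 in WT and 28.1 and 50.0 in ASH1L-/- cells, with fold enrichments of 2.94, 2.99, 3.01 and 3.48. It was thus weak, but found in each irradiated library. Its sequence around the summit, shown because the site separates the libraries, holds in capitals the upstream element given above.

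GADD45A, chr1:67684263-67684462, forward strand: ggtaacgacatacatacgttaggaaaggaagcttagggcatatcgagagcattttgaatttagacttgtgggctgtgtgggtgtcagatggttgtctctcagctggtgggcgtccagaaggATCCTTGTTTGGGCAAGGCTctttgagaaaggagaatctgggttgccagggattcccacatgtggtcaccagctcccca

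The other site gained in this way lay downstream of BAX, which encodes a protein that permeabilises mitochondria in apoptosis. Its region (chr19:48963716-48964251) had percentiles of 11.2 and 23.9 in WT and 17.7 and 37.5 in irradiated ASH1L-/- libraries and was in no unchallenged list. No p53 element was found in the stretch around its summit, which is shown for comparison.

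BAX, chr19:48963708-48963907, forward strand: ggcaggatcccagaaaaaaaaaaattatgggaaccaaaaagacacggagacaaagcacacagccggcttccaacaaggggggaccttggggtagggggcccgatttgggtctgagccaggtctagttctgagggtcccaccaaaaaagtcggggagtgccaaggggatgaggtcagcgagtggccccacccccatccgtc

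These were 2 of the 115 sites (1.74%), against 0.686% of all sites in the genome. No site of these loci was present in all unchallenged and no irradiated list, against 0.0967% in the genome. Of the 3758 sites gained in the genome, 112 (2.98%) held a p53 element in the window around the summit. Presence in a list depends on depth. The 4 irradiated libraries had relative depths between 2.45 and 2.81, and 3 of the 4 unchallenged ones were shallower (1.39 to 2.10). The deepest of all (5.87) was unchallenged and held neither site. The part of depth in the 2 gained sites was not tested. If a region had to cover at least 50% of its site to count, a definition chosen after seeing the data, 4 sites were gained. The 2 added were FAS chr10:89031951-89032657, beyond the 3′ end of the gene, and PPM1D chr17:60614036-60614710, in an intron.

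**Figure D3:**
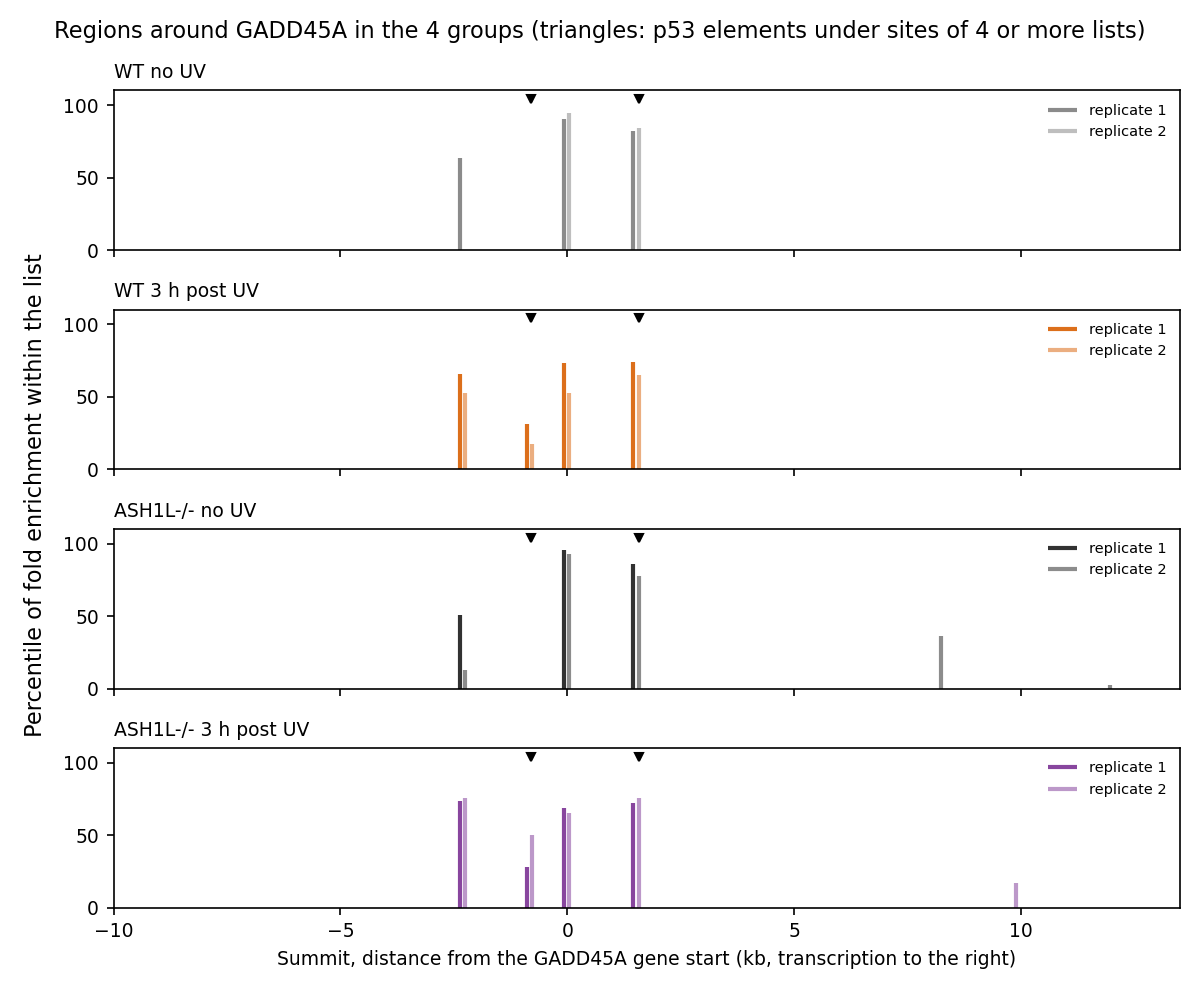
Regions around GADD45A in the 4 groups (panels). The height of a line is the percentile of a region within its list, the horizontal axis is the distance of the summit from the start of the gene in kb, and dark and light lines are replicates 1 and 2. Lines at 838 bp before the start appear only in the panels after UV, where the promoter lines are shorter than without UV.

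Within the gene, the GADD45A intronic site that holds the element with 1 mismatch (chr1:67686559-67687077) stayed open in all libraries. Its percentiles were 82.3 and 84.5 in unchallenged WT, 74.0 and 64.7 in irradiated WT libraries, 85.6 and 77.5 in unchallenged ASH1L-/-, and 72.3 and 75.4 in irradiated ASH1L-/- libraries. All irradiated libraries were below all unchallenged ones, but the UV difference of -10.8 ± 4.77 did not pass the test (adjusted p = 0.186, limma). In fold enrichment it was 6.51 ± 1.20 without and 6.67 ± 0.462 with UV, which overlapped. The site 2313 bp upstream of GADD45A (chr1:67682673-67683381) was missing from 1 unchallenged WT list and was therefore not tested. It had percentiles of 63.7 in the other WT list, 65.5 and 52.3 in irradiated WT libraries, 50.4 and 12.95 in unchallenged ASH1L-/- and 73.4 and 75.8 in irradiated ASH1L-/- libraries.

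Among the genes that switch p53 off, neither MDM2 nor PPM1D had a site called for UV. MDM2 encodes the ubiquitin ligase that degrades p53, and its site chr12:68807411-68809275 covers the start of the gene and its internal promoter, where the element lies. Percentiles were 83.1 and 90.6 in unchallenged WT, 90.3 and 83.5 in irradiated WT libraries, 83.3 and 83.6 in unchallenged ASH1L-/- and 86.9 and 85.3 in irradiated ASH1L-/- libraries. The 4 groups overlapped, and the difference was 1.33 ± 3.16 (adjusted p = 0.824). Farther upstream, a MDM2 site at chr12:68801491-68801996 had the highest UV difference of the 23 sites, 19.03 ± 11.7 (adjusted p = 0.332), with percentiles from 23.7 to 78.8 without and from 61.5 to 82.3 with UV. The PPM1D promoter (chr17:60599433-60600481) had 93.3 and 87.1 in unchallenged WT, 85.9 and 71.5 in irradiated WT, 93.0 and 88.3 in unchallenged ASH1L-/- and 86.6 and 82.7 in irradiated ASH1L-/- libraries. All irradiated libraries were below all others, and the difference was -8.75 ± 3.77 (adjusted p = 0.178), or -5.14 without replicate 2 of the irradiated WT cells. Its fold enrichment was 9.19 ± 1.02 without and 9.17 ± 0.964 with UV.

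The promoters of the apoptosis genes did not pass the test either. The BAX promoter (chr19:48954245-48955728) had percentiles of 87.6 and 88.9 in unchallenged WT, 81.3 and 70.5 in irradiated WT, 88.2 and 82.7 in unchallenged ASH1L-/- and 83.2 and 79.2 in irradiated ASH1L-/- libraries. One irradiated ASH1L-/- library lay above the lowest unchallenged one, and the difference was -8.28 ± 3.94 (adjusted p = 0.216). The FAS promoter (chr10:88990236-88991678), which overlaps a promoter of ACTA2, had 91.3 and 86.5 in unchallenged WT, 96.4 and 92.5 in irradiated WT, 94.0 and 92.9 in unchallenged ASH1L-/- and 94.1 and 93.5 in irradiated ASH1L-/- libraries. Its difference was 2.96 ± 1.66 (adjusted p = 0.287), and its fold enrichment was 9.49 ± 0.960 without and 14.3 ± 1.47 with UV with no overlap of the libraries. TP53I3, an oxidoreductase linked to oxidative stress, had the strongest promoter of the 10 genes (chr2:24083743-24085105), at 98.0 ± 0.907 without and 95.1 ± 3.11 with UV (SD, n = 4 each). Its difference of -2.93 ± 1.20 (adjusted p = 0.163) passed only without replicate 1 of the irradiated WT cells (-4.24, adjusted p = 0.0336), and was -1.61 without replicate 2 of these cells (adjusted p = 0.287). BBC3 encodes PUMA, an activator of apoptosis, and had 3 promoter sites in all 8 lists. Their UV differences were -3.71 ± 5.50 at the gene start (chr19:47232376-47233325, adjusted p = 0.705), 0.451 ± 6.10 at an internal start with the element (chr19:47231229-47232104, adjusted p = 0.972) and -23.6 ± 10.8 at another internal start (chr19:47226914-47228204, adjusted p = 0.201). The last of these ranged from 50.0 to 79.0 without and from 28.4 to 65.1 with UV, so that the libraries overlapped. TP53INP1, a cofactor in p53-dependent cell death, had the weakest promoter, with percentiles between 35.1 and 78.0 without and between 59.8 and 68.0 with UV (8.93 ± 10.5, adjusted p = 0.626).

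The promoters of the growth arrest genes SESN1 and BTG2 had lower percentiles in all 4 irradiated libraries, without passing the test. At the SESN1 promoter (chr6:109094138-109095781), shared with CEP57L1, percentiles were 93.8 and 94.5 in unchallenged WT, 89.9 and 83.6 in irradiated WT, 95.9 and 96.9 in unchallenged ASH1L-/- and 85.8 and 91.5 in irradiated ASH1L-/- libraries. The difference was -7.55 ± 2.04 (adjusted p = 0.0624), and it passed in 3 of 7 other treatments of the values, with an adjusted p of 0.0371 on normal scores, 0.04 on percentiles among shared sites and 0.0373 on quantile-normalised fold enrichment. It also passed without replicate 1 of the irradiated WT cells (adjusted p = 0.0341). Its deposited fold enrichment overlapped between the sides, 11.9 ± 1.75 without and 11.2 ± 0.895 with UV. The internal SESN1 promoter (chr6:109008680-109010040), whose site holds the element, was at 72.5 ± 3.16 without and 70.8 ± 4.59 with UV (adjusted p = 0.868). BTG2 encodes an antiproliferative protein. Its promoter (chr1:203305011-203306160) had 85.3 and 88.0 in unchallenged WT, 84.2 and 71.1 in irradiated WT, 92.1 and 89.9 in unchallenged ASH1L-/- and 81.5 and 83.3 in irradiated ASH1L-/- libraries, a difference of -8.79 ± 3.71 (adjusted p = 0.17), or -5.52 without replicate 2 of the irradiated WT cells. Fold enrichment of this promoter was 8.44 ± 1.21 without and 8.66 ± 0.221 with UV, which overlapped. The intronic BTG2 site next to it (chr1:203306292-203307027), which holds the BTG2 element, differed in percentile in the opposite direction by 8.91 ± 7.18 (adjusted p = 0.462). Its fold enrichment was 3.38 ± 0.401 without and 5.53 ± 0.529 with UV with no overlap.

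**Figure D4:**
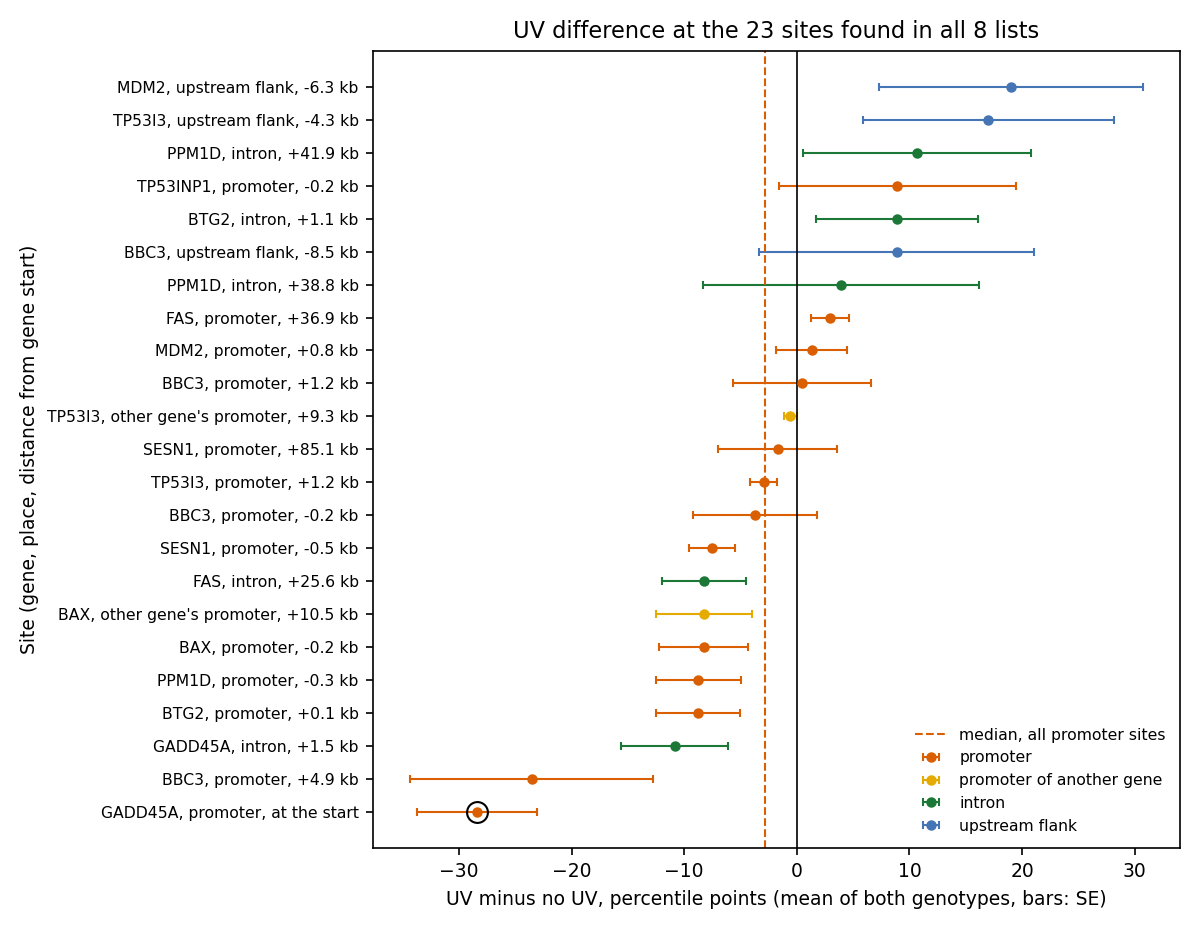
UV difference in percentile points (horizontal axis, mean of both genotypes, bars are the SE) of the 23 sites found in all 8 lists (vertical axis, with distance from the gene start). Colours mark the place of a site, the dashed line the median of all promoter sites (-2.79), and the circle the one site past the threshold, the GADD45A promoter at -28.4.

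At an unadjusted p below 0.05 for UV (limma) there were 6 of the 23 sites, against 15627 of all 60323 sites tested. At an adjusted p below 0.05, 1 of the 23 was lower after UV and 0 were higher. The background of such calls was 2.75% lower and 1.94% higher among all 60323 sites tested, and 1.96% lower among promoter sites. A share of 1 in 23 is near this background. In the genome 1169 sites were higher and 1659 lower, or 41.3% higher, and this split depended on the scaling. It was 4390 higher and 3462 lower (55.9%) when percentiles were ranked among the sites shared by all 8 lists, and 5414 and 4428 (55.0%) with quantile-normalised fold enrichment. Percentiles of the irradiated libraries were all below the unchallenged ones at 7 of the 23 sites (background 12.3%) and all above at 0 (background 5.99%). These 7 were the promoters of GADD45A, SESN1, BTG2 and PPM1D (4 of 13 promoter sites, background 18.8%), the GADD45A intronic site, a FAS intronic site (chr10:88979090-88979649, also within ACTA2) and the FTL promoter downstream of BAX (chr19:48964967-48966233). In fold enrichment as deposited, a measure added after seeing the data, the libraries separated at 1 site with UV lower, the GADD45A promoter. They separated at 4 with UV higher, the FAS promoter, the BTG2 intronic site and the internal promoters of BBC3 and SESN1 (background 21.3% higher).

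**Figure D5:**
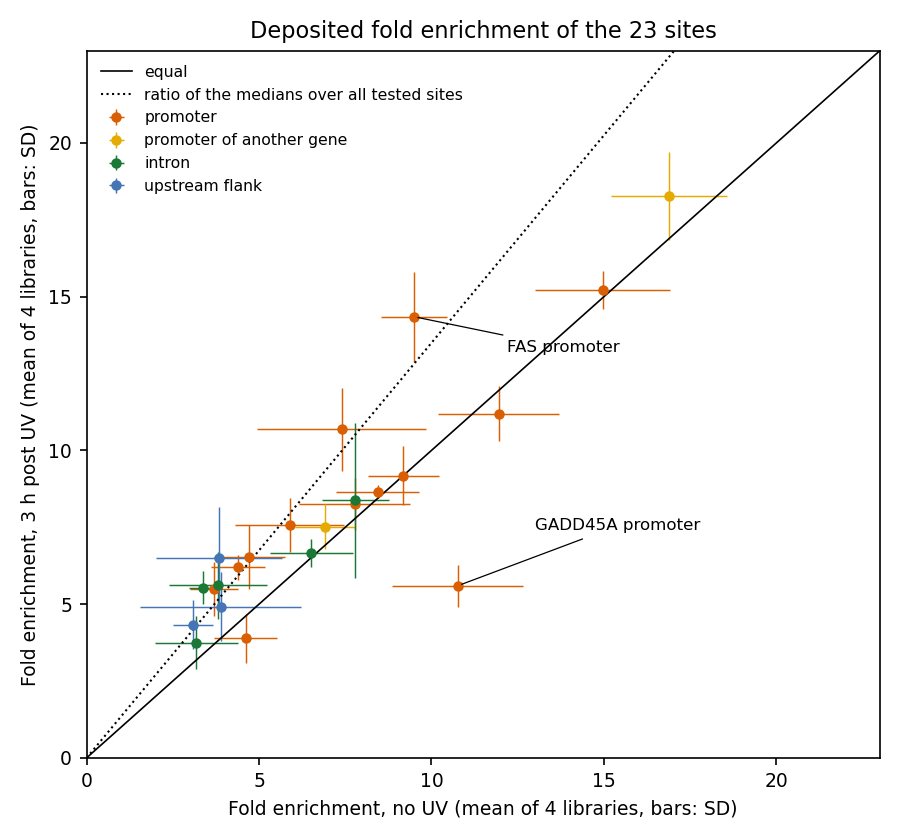
Deposited fold enrichment with UV (vertical axis) against without UV (horizontal axis) at the 23 sites, as means of 4 libraries with SD. The solid line marks equal values and the dotted line the ratio of the medians over all sites tested. The GADD45A promoter (10.8 without and 5.598 with UV) lies far below both lines.

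Promoter sites had higher percentiles than intronic sites, and a difference between them in the UV response was not tested. The median percentile of the 13 promoter sites was 86.4 ± 1.97 without and 78.6 ± 5.65 with UV (SD over 4 libraries each). Replicate 2 of the irradiated WT cells was lowest at 70.5, against 83.1, 81.5 and 79.4 in the other irradiated libraries, and without it the UV difference was -4.62 instead of -7.77. For all promoter sites of the genome the median was 87.6 ± 1.57 and 83.5 ± 2.501, a difference of -4.12. The UV difference was below 0 at 9 of the 13 (69.2%) and at 75.1% of all promoter sites. The 5 intronic sites, which belong to GADD45A, BTG2, FAS and PPM1D, had a median of 67.5 ± 5.64 without and 66.6 ± 5.35 with UV, against 81.4 ± 2.72 and 80.4 ± 1.98 for all intronic sites tested. Their UV differences ranged from -10.8 to 10.7, with 2 of 5 below 0, against 52.5% of all intronic sites tested. Taken site by site, the median UV difference was -3.71 at the 13 promoter sites, against -2.79 for all promoter sites. At the 5 intronic sites it was 3.91, against -0.406 for all intronic sites. All 3 sites in upstream flanks, of MDM2, TP53I3 and BBC3, had differences above 0, from 8.85 to 19.03, none of which passed the test. Their unchallenged percentiles spread widely, with SDs of 25.2, 29.3 and 23.3 in this order (n = 4 each). The guanine and cytosine content of the 300 bp windows was 63.7% at the median for these promoter sites and 61.3% for all promoter sites tested.

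Genotype left no call at these loci. By limma, 0 of the 23 sites passed in either direction, with 1 at an unadjusted p below 0.05, and the genome had 0% called with 5599 sites at an unadjusted p below 0.05. Genotype differences (ASH1L-/- minus WT) ranged from -21.1 to 22.9, and the lowest adjusted p was 0.535. At 2 sites all ASH1L-/- libraries were above all WT libraries (background 2.57%), and at 0 sites below (background 1.51%). The first was the internal BBC3 promoter chr19:47231229-47232104, with percentiles from 56.2 to 71.3 in WT and from 72.8 to 81.0 in ASH1L-/- cells (12.9 ± 6.10, adjusted p = 0.559). The other was a PPM1D intronic site (chr17:60641713-60642228), with 14.3, 60.3, 56.5 and 59.8 in WT and 65.4, 75.4, 70.2 and 71.6 in ASH1L-/- cells (22.9 ± 10.1, adjusted p = 0.535). The value of 14.3 belongs to replicate 1 of the unchallenged WT cells and lay apart from the rest. At the GADD45A promoter the genotype difference was 3.00 ± 5.30 (adjusted p = 0.887).

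The UV response did not differ detectably between the genotypes. No site of these loci passed the test of UV by genotype (limma, 0 of 23 at an unadjusted p below 0.05), and in the genome 0% were called, with 1765 at an unadjusted p below 0.05. The differences between the UV responses (WT minus ASH1L-/-) ranged from -50.8 to 25.7 points. The widest, -50.8 ± 24.5, was at a PPM1D intronic site (chr17:60638659-60639109) whose percentiles were 56.1, 67.3, 33.2 and 47.1 in WT and 0.300, 30.02, 28.4 and 60.5 in ASH1L-/- cells, in the order unchallenged and UV. With SEs of this size a sizeable difference between genotypes would have gone undetected.

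A list of 30 other genes of the p53 pathway was examined at the strongest promoter site of each. For 27 it was present in all 8 lists. Of these, 0 passed the UV test in either direction (limma, lowest adjusted p = 0.0597) or the genotype test. At an unadjusted p below 0.05 for UV (limma) there were 11 of the 27, against 15627 of the 60323 sites tested in the genome. The UV difference was below 0 for 22 of the 27, with a median of -2.82, against -2.79 for all promoter sites of the genome. Irradiated libraries were all lower for 7 of the 27 genes (background 18.8% of promoter sites) and all higher for 1 (background 5.99% of all sites). With genes chosen after their values were seen, the higher one was ZMAT3, an RNA-binding protein (from 68.3 to 83.3 on average, adjusted p = 0.11), and the lowest adjusted p was that of PMAIP1, which encodes the apoptosis activator NOXA (from 94.4 to 80.0). The CDKN1A promoter, of the cell cycle inhibitor p21, had percentiles between 10.8 and 72.3 and a difference of -24.5 ± 10.7 (adjusted p = 0.184).

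Sites beyond the tested ones included a FAS site beyond the 3′ end (chr10:89031951-89032657) that was found in 7 lists. It had percentiles of 72.9 and 76.4 in unchallenged WT, 92.5 and 94.0 in irradiated WT libraries, 45.1 in 1 unchallenged ASH1L-/- library and 78.1 and 86.2 in irradiated ASH1L-/- libraries. Each irradiated library was above each unchallenged one that held the site. It did not pass the test when the list that lacked it, unchallenged ASH1L-/- replicate 2, was given a percentile of 0, and with that list left out it was higher by 27.8 points (adjusted p = 0.04999). At the neighbours of TP53I3, the shared promoter of SF3B6 and FAM228B (chr2:24076025-24076959) was the strongest site of all loci, with percentiles between 98.0 and 99.3 in the 8 libraries.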

How the data were processed

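Omni-ATAC-seq libraries of U2OS cells were sequenced as paired reads. The authors trimmed them with cutadapt 1.9.1, aligned them with Bowtie2 2.4.5 to hg38 without chromosome Y, filtered them with SAMtools 1.7, bedtools 2.29.2 and Picard (mapping quality of at least 30), and called peaks with MACS2 2.2.7.1 in each library without pooling replicates. The deposited lists hold a fold enrichment (a ratio of pileup to local background), a −log10 p-value and a −log10 q-value, and a score that the authors' caller capped at 1000 and that was not used. No deposited value was normalised between lists, and the lists reach down to a p-value of 0.01. They hold no counts. Relative depth was recovered by solving the caller's equations for fold enrichment and p-value together (100% of the pairs solved), and absolute depth is unknown.

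A region was a distinct interval with its highest fold enrichment, on chromosomes 1 to 22 and X. Where a list had several regions on a site, the strongest was used. Percentiles of the 60323 sites with a region in all 8 lists were fitted with limma 3.58.1 in R 4.3.3 (group means, eBayes with trend), with Benjamini-Hochberg adjustment over all of them. The filter keeps sites that are open everywhere, so a site gained or lost with UV was only counted by presence. Counts, presence and medians over the members carry no p. The scripts were tested on simulated data. The members, the gene lists and the rules were chosen with earlier results of these data known. Named sites were the strongest promoter and intronic site of each gene and every site called, not overlapping or separating the libraries by presence, and further sites are named as values. Sequences and promoters came from hg38 and GENCODE release 44. Peaks near one another on a locus are not independent. Sites at chromosome 8 were given without sequence. Of the cell type markers examined, 1 is not reported here.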

Additional observations from a re-analysis of the deposited data

How the results depend on the processing

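Results were recomputed with regions of q below 0.05 or of 0.01 or below, normal scores, percentiles among the shared sites, quantile-normalised log2 fold enrichment, sites found in at least 4 lists, a replicate block, other flanks and promoter distances, and without each library in turn. The GADD45A promoter remained called in all treatments that kept every library. Sites of the genome called higher after UV, 1169 as reported, were 2808 with normal scores, 4390 among shared sites, 1798 at q of 0.01 or below, 5414 with quantile-normalised values and 6602 in at least 4 lists. Sites called lower, 1659 as reported, were 3592, 3462, 691, 4428 and 3092 in the same order, and 857 at q below 0.05. Sites called by genotype, 0 as reported, were 96 with normal scores, 109 among shared sites and 580 with quantile-normalised values. Member sites called lower were 2 in these 3 treatments, GADD45A and SESN1 promoters. The cause was not tested.

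With single libraries left out, calls of the genome ranged from 0 to 3378 higher, 0 to 3642 lower, 0 to 220 by genotype and 0 to 10 by UV by genotype, and member calls from 0 to 1 higher and 0 to 3 lower. Over the same fits the UV difference in the libraries' median percentile of member promoters ranged from -10.9 to -4.62. The genotype difference in this median ranged from -1.80 to 4.51. For the median percentile of member introns the ranges were -3.40 to 1.58 (UV) and 4.60 to 9.58 (genotype). For the number of regions over the loci they were -4 to -1 (UV) and -1 to 2 (genotype). The UV difference turned in sign within these fits for MDM2 (-0.543 to 3.20), BBC3 (-7.45 to 0.0227), TP53INP1 (-1.79 to 19.6) and the PPM1D intronic site (-0.842 to 22.2), and the genotype difference for GADD45A (-2.21 to 8.21). The BBC3 promoter difference was 2.52 at q of 0.01 or below.

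The UV difference in regions over the loci was 5 at q below 0.05 and 8.5 at q of 0.01 or below. Among shared sites the UV difference in the libraries' median percentile of member promoters was -14.3. Sites gained by presence were 4 if a region had to cover at least 50% of the site, added after seeing the data. The wider planned form (covering or lying within 50%) is met by every region and changed nothing. Irradiated libraries were all higher at 1 member site at q below 0.05 (BTG2 intron). They were all lower at 4 among shared sites and at 2 at q below 0.05. The share of all sites tested was not counted for these treatments, so the counts have no background beside them. On deposited fold enrichment 4 were all higher (background 21.3%) and 1 all lower (background 1.03%). ASH1L-/- libraries were all higher at 0 sites under all 3 treatments. The 4 sites all lower among shared sites were the promoter and intron of GADD45A and the SESN1 and FTL promoters. The 2 at q below 0.05 were the GADD45A and SESN1 promoters. The BTG2 and PPM1D promoters thus no longer separated by UV in either treatment. An element was found at 2 member sites with at most 2 mismatches (1.74%, against 0.389% of all sites). In windows of 200 bp it was found at 3 (2.61%, against 1.14%).

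Correlations of replicate deviations between groups were low, with 1 of 6 above 0.1 (-0.079 to 0.137). They cannot show how the replicates were prepared, so whether the replicate numbers pair the libraries is unknown. With the replicate block 887 sites were higher and 1066 lower, and GADD45A kept its call (adjusted p = 0.0354). With 2 libraries a group and no read counts, differences within 1 genotype are the least certain.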
